A study of Bos taurus with 6 samples.

Results

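Genes whose products sit on the membrane of the milk fat globule, or at the apical surface that globule leaves through, were followed in cultured bovine (Bos taurus) mammary epithelial cells. Members were chosen by name and not by a rule on their values, though with earlier results of these data known. They are XDH, BTN1A1, CIDEA, RAB18, MFGE8, MUC1, MUC15 and SLC34A2. Of these 8 genes, 7 had a row among the 24616 genes of the deposited table. The row for BTN1A1 carried no symbol and was found by its RefSeq protein accession, while no row matched CIDEA, which is not analysed here. Cells treated with acetate plus BHBA (3 libraries) were compared with control cells (3 libraries). BHBA is beta-hydroxybutyrate, a ketone body, and the ruminant gland draws on both compounds when it makes fatty acids. Titles name the acetate as NaAc, and the labels describe no control with matched sodium, so sodium and the added substrates cannot be told apart. No library had acetate or BHBA alone, so these cannot be told apart either. Column headings of the treated libraries give NaAc without BHBA, and were matched to the only titles that name NaAc. The series presents the treated cells as making more milk fat, and the comparison asks which genes differ with it. Dose, treatment time and the way the cells were obtained or grown are not given in the sources used. Nothing says that the libraries of a group came from separate cultures, so p-values reflect library-to-library spread that may be purely technical.

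Milk fat leaves the secretory cell as a lipid droplet that is wrapped in apical plasma membrane and pinched off into the lumen. XDH (xanthine dehydrogenase, also xanthine oxidoreductase) is a purine-degrading enzyme that in milk secretion acts as a structural protein, between the droplet coat and the membrane protein BTN1A1 (butyrophilin). CIDEA is a droplet protein that, in mice, promotes droplet enlargement and secretion in the lactating gland, and RAB18 is a small GTPase of the droplet surface. MFGE8 (lactadherin) is a secreted protein that binds phosphatidylserine and coats the globule, MUC1 and MUC15 are transmembrane mucins, and SLC34A2 is a sodium-phosphate cotransporter of the apical membrane. These roles were described in the lactating gland, whereas the cells here were in culture.

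Values are FPKM, fragments counted per length of gene and per number of fragments sequenced, so levels can be compared between genes. The table holds no read counts, and its depth is unknown. Summed FPKM ran from 787186 to 936152 in the treated libraries and from 816087 to 1134026 in the control libraries, with control replicate 1 highest and treated replicate 1 lowest. The correlation of log2 levels with the other libraries of its group averaged 0.931 for control replicate 1 and at least 0.951 for each of the others. Of the 9 luminal epithelial markers, KRT7, KRT8, KRT18 and KRT19 stood at 961 FPKM or more in all 6 libraries. ELF5 and GATA3 were low, at means of 3.41 and 6.30 FPKM, and KIT reached at most 0.02 FPKM. The minimum mean of 1 FPKM for testing was reached by 8 of the 9, with 7 on the lower side in treated cells, 1 on the higher and 0 past the threshold. CDH1 was lower in treated cells without overlap, but replicate 1 of each group was almost level, at 204.57 FPKM in treated and 204.59 FPKM in control. Of 7 lactating secretory cell markers with a row, CSN1S1, CSN1S2, CSN2, PAEP and GLYCAM1 were listed at 0 in every library. LALBA reached 0.1 FPKM in 1 library, and CSN3 alone reached the minimum and was tested. The basal marker list summed to between 7489 and 8598 FPKM in the treated libraries and between 10032 and 11353 in the control libraries, most of it KRT5, which averaged 6380 ± 409 FPKM in treated and 9104 ± 243 FPKM in control cells (SD, n = 3 each). Of the 5 basal markers tested, 0 were past the threshold, KRT5 with a log2 fold change of -0.51 ± 0.20 (limma adjusted p = 0.418). KRT5 and ACTA2 lay on the lower side, KRT14, KRT17 and CNN1 lay on the higher side, and the median log2 fold change was 0.34. Under the minimum for testing, OXTR averaged 0.93 ± 0.22 FPKM in treated and 0.13 ± 0.11 FPKM in control cells (SD, n = 3 each). Fibroblast markers summed to between 51.1 and 57.3 FPKM in treated and between 28.0 and 45.2 in control libraries. Of the 7 tested, 6 were on the higher side, against 7192 of all 11615 genes tested, and 0 were past the threshold. THY1 had the largest of these differences, with 14.0, 18.6 and 17.7 FPKM in treated and 6.39, 2.54 and 4.01 FPKM in control libraries (log2 fold change 1.91 ± 0.31, limma adjusted p = 0.0711). THY1 is counted in the sums above. DCN and LUM were also higher in treated cells without overlap, and FAP was at most 0.28 FPKM. The collagens COL1A1, COL1A2 and COL3A1 overlapped between the groups, with log2 fold changes of 0.19, -0.09 and 0.03, and PDGFRA overlapped at 0.23. Adipocyte markers summed to between 2.69 and 4.07 FPKM in treated and between 1.41 and 2.00 in control libraries. LEP had 1.55, 1.97 and 1.0 FPKM in treated and 0.07, 0.11 and 0.23 FPKM in control libraries, without overlap. PLIN1 was lower in treated cells at 0.17 ± 0.053 FPKM, against 0.31 FPKM in each control library, and ADIPOQ was at most 0.07 FPKM. The part of these other cell markers in the results below was not tested. Leukocyte and endothelial lists overlapped between the groups and summed to at most 8.77 FPKM. Of 48 ribosomal protein genes, 5 were also listed at 0 in all 6 libraries, so a 0 in this table need not mean that the transcript was absent.

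Of the 7 genes with a row, 4 reached a mean of 1 FPKM and were tested, and 0 of these 4 passed (limma on log2(FPKM + 0.5), p adjusted by Benjamini-Hochberg, threshold 0.05, n = 3 per group). Over all 11615 genes tested, 0.474% passed, 0.344% as higher and 0.129% as lower in treated cells. Whether or not they passed, 7192 of the 11615 had a positive log2 fold change and 4423 did not. The splits of higher and lower genes in the lists below are to be read beside these counts. In bulk RNA, fewer cells that express a gene and less of its RNA per cell cannot be told apart. XDH stood higher in treated cells without passing, RAB18, MFGE8 and MUC1 differed by less than the spread between libraries, SLC34A2 was close to 0, and BTN1A1 and MUC15 were listed at 0 throughout. At an unadjusted p under 0.05 there was 1 of the 4, XDH, against 11.0% of all genes tested, or 7.42% with the treated level higher as for XDH. Counts at that level in the lists below are to be read beside the 11.0%. In both groups the order of level was MFGE8, XDH, RAB18, MUC1 and, far below, SLC34A2. Neighbours among the 4 tested genes did not overlap in range within a group, except XDH and RAB18 in control cells, where XDH was still the higher of the pair in each of the 3 libraries.

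**Figure D1:**
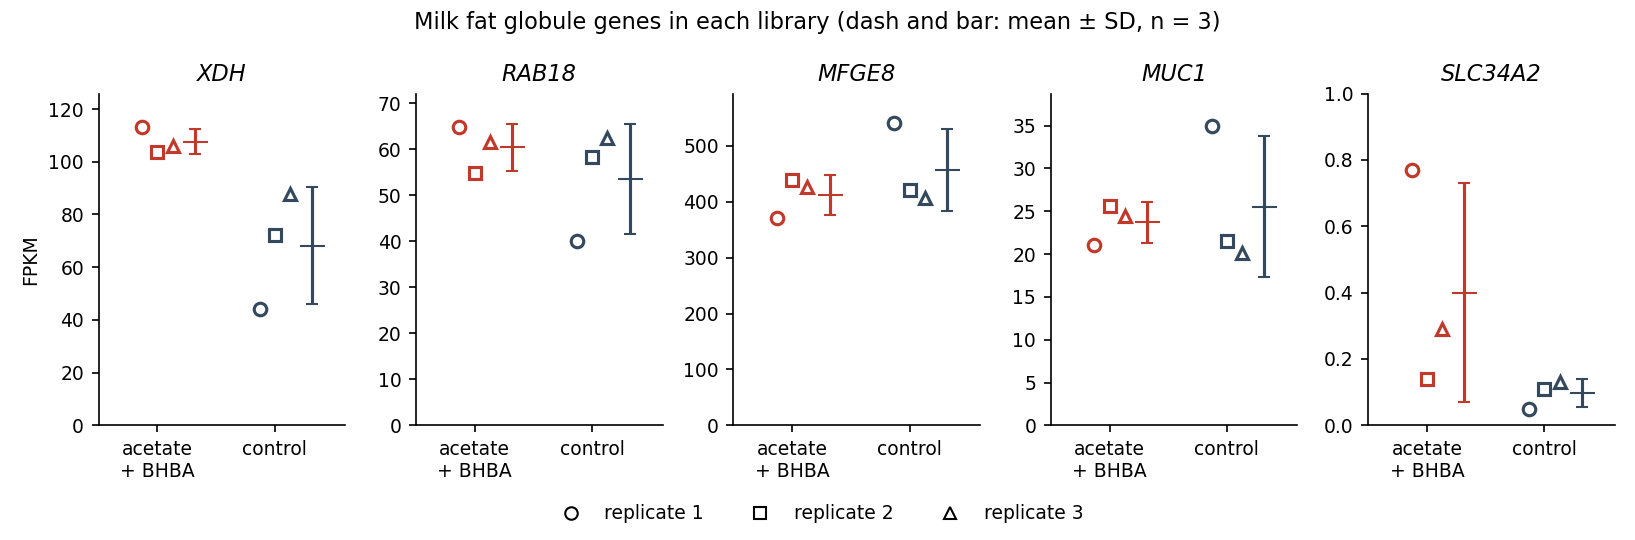
FPKM of 5 milk fat globule genes in each library, with 3 treated libraries (red, left) and 3 control libraries (dark blue, right) per panel, symbols for the replicate number, and the mean ± SD beside them; each vertical axis starts at 0 and has its own scale. All treated values of XDH lie above the control values, while control replicate 1 is the lowest library for XDH and RAB18 and the highest for MFGE8 and MUC1.

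XDH had the largest log2 fold change of the 4 tested members. It had 113, 104 and 106 FPKM in treated replicates 1, 2 and 3, against 44.1, 72.2 and 87.9 FPKM in control replicates 1, 2 and 3. The groups did not overlap, and the control libraries were spread more widely than the treated ones. Within each group, XDH was lower the larger the summed FPKM of the library. Means were 108 ± 4.87 FPKM in treated and 68.1 ± 22.2 FPKM in control cells (SD, n = 3 each). The log2 fold change was 0.71 ± 0.25 (SE), a 1.64-fold higher level in treated cells, with a 95% interval from 0.11 to 1.32 that is not adjusted for the number of genes. With limma's adjustment over all genes tested, the adjusted p was 0.350. Non-overlapping groups were found for 1 of the 4 tested members and for 19.7% of all genes tested, 13.0% with treated cells higher and 6.69% with treated cells lower. Control replicate 1 set much of the size: without it the log2 fold change of XDH was 0.43 (adjusted p = 0.137). In a fit that took each library's FPKM total as a covariate, XDH passed, at a log2 fold change of 0.59 ± 0.10 and an adjusted p of 0.0105 in limma, where 18.0% of all genes passed. Rescaled so that all libraries had the same total, XDH stood at 144, 111 and 116 in treated and at 38.9, 85.1 and 108 in control libraries, still without overlap but with treated replicate 2 close to control replicate 3. Its adjusted p ran from 0.0105 to 0.986 over the 17 alternative settings.

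The XDH protein carries a molybdenum cofactor, and the genes that build this cofactor or act beside XDH on purines gave no call: 0 of 10 tested genes passed in either direction (1 at an unadjusted p under 0.05), with 5 on each side and a median log2 fold change of 0.06, against 0.08 over all genes tested. AOX1, an aldehyde oxidase that is the close relative of XDH and uses the same cofactor, had 29.9, 23.9 and 24.5 FPKM in treated and 10.1, 20.8 and 20.3 FPKM in control libraries. As with XDH, control replicate 1 was the lowest library and the groups did not overlap. Its log2 fold change was 0.66 ± 0.29 (limma adjusted p = 0.488), or 0.33 without control replicate 1. MOCS1, which starts cofactor synthesis, lay on the other side at 14.6, 16.9 and 18.1 FPKM in treated and 22.2, 22.9 and 23.3 FPKM in control libraries, again without overlap (log2 fold change -0.46 ± 0.13, limma adjusted p = 0.237). MOCOS, which adds the sulfur that XDH needs for its activity, averaged 29.2 ± 1.62 FPKM in treated and 32.1 ± 2.13 FPKM in control cells (SD, n = 3 each). HPRT1, the enzyme that salvages hypoxanthine before XDH can oxidise it, averaged 66.9 ± 5.02 FPKM in treated and 82.8 ± 17.1 FPKM in control cells (SD, n = 3 each). Its log2 fold change was -0.29 ± 0.17 (limma adjusted p = 0.662), or -0.13 without control replicate 1. UOX, which degrades the uric acid that XDH makes, reached at most 0.03 FPKM in any library.

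BTN1A1, the membrane partner of XDH, was listed at 0 in all 6 libraries. Only 3 genes of the butyrophilin family list were matched to a row, and the others may lie among rows that carry only an identifier. BTNL9 was also listed at 0 in all 6, and MOG, a family member best known from myelin, was the 1 that was tested. It varied widely, at 23.6, 7.12 and 13.3 FPKM in treated and 2.37, 14.8 and 15.4 FPKM in control libraries, so that the groups overlapped (log2 fold change 0.62 ± 0.75, limma adjusted p = 0.898). Without control replicate 1 the log2 fold change of MOG was -0.19. The same 6 libraries held XDH at 44.1 FPKM or more.

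RAB18 had 64.8, 54.9 and 61.6 FPKM in treated libraries and 40.0, 58.3 and 62.4 FPKM in control libraries. Control replicate 1 alone lay apart, and the other 5 libraries ran from 54.9 to 64.8 FPKM with the groups mixed. Means were 60.4 ± 5.03 FPKM in treated and 53.6 ± 11.9 FPKM in control cells (SD, n = 3 each), with a log2 fold change of 0.19 ± 0.19 (95% interval -0.27 to 0.65, limma adjusted p = 0.853). Without control replicate 1 it was -0.0011. RAB18 is switched on by the complex of RAB3GAP1 and RAB3GAP2 and switched off by TBC1D20. RAB3GAP1 averaged 14.8 ± 2.15 FPKM in treated and 15.5 ± 3.84 in control cells, and TBC1D20 averaged 16.0 ± 1.24 and 16.1 ± 1.03 FPKM in the same order (SD, n = 3 each). RAB3GAP2 ran from 7.31 to 12.7 FPKM in treated and from 3.89 to 12.2 FPKM in control libraries, with control replicate 1 the lowest. The tethering proteins ZW10, RINT1 and NBAS, which bind RAB18, had log2 fold changes of 0.15, 0.14 and -0.03.

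Droplet coat and fusion genes gave 0 calls among 13 tested (2 at an unadjusted p under 0.05, 9 higher, 4 lower, median log2 fold change 0.14). Of all 11615 genes tested, 7192 were on the higher side and 11.0% had an unadjusted p under 0.05. All 13 were on the higher side after rescaling to the same total or without control replicate 3, whereas without control replicate 1 the split was 6 higher and 7 lower with a median of -0.03. PLIN2 (adipophilin), the droplet coat protein that meets XDH in the secretory complex, had 25.5, 23.7 and 21.8 FPKM in treated and 21.5, 23.5 and 26.9 FPKM in control libraries. The groups were interleaved, with a log2 fold change of -0.02 ± 0.14 (limma adjusted p = 0.984). PLIN3, a perilipin found on small new droplets, averaged 43.1 ± 1.91 FPKM in treated and 33.7 ± 5.59 FPKM in control cells (SD, n = 3 each), without overlap between the groups (log2 fold change 0.36 ± 0.15, adjusted p = 0.445 in limma, or 0.24 without control replicate 3). RAB11A and RAB7A, GTPases of recycling and late endosomes, likewise stood higher in treated cells without overlap and without passing, by log2 fold changes of 0.26 ± 0.11 and 0.19 ± 0.11. Of the relatives of CIDEA, CIDEB had 0.58, 1.23 and 0.84 FPKM in treated and 0.82, 0.46 and 0.43 in control libraries, and CIDEC was above 0 in 1 library only, at 0.1 FPKM in control replicate 1.

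MFGE8 was the most abundant member. Its level was 370, 439 and 426 FPKM in treated libraries and 541, 421 and 407 FPKM in control libraries, above at least 98.8% of all rows in every library. The groups overlapped, with control replicate 1 highest and treated replicate 1 lowest. Means were 412 ± 36.5 FPKM in treated and 456 ± 73.6 FPKM in control cells (SD, n = 3 each), and the log2 fold change was -0.14 ± 0.16 (95% interval -0.53 to 0.25, limma adjusted p = 0.889), or -0.01 without control replicate 1. The 6 values stood in exactly the order of the libraries' summed FPKM. Rescaled to the same total, they drew together to 470, 469 and 467 in treated and 477, 496 and 499 in control libraries. On that scale the treated libraries lay just below the control ones without overlap, as did the groups of 19.6% of all genes one way or the other, and the log2 fold change was -0.07 ± 0.08 (95% interval -0.25 to 0.12, limma adjusted p = 0.937).

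MFGE8 is known as a bridge between phosphatidylserine and integrins. Its list holds integrin partners, its relative EDIL3, phosphatidylserine receptors, and the receptors AXL and MERTK with the ligand GAS6. The list gave 0 calls among 5 tested genes. At an unadjusted p under 0.05 there were 2, AXL and GAS6, against 11.0% of all genes tested. All 5 had a positive log2 fold change, as did 7192 of all 11615 genes tested, with a median of 0.46 against 0.08 over all genes tested. The 5 stayed positive under every setting tried in which they were tested, but these settings reuse the same libraries and are not separate evidence. For 3 of the 5 the treated libraries lay above the control libraries without overlap, against 13.0% of all genes tested. In the fit with the FPKM total as a covariate 4 of the 5 passed, against 18.0% of all genes. That fit also passed 4 of 10 tested genes of the XDH cofactor and purine list, 3 of 9 of mucin glycosylation, 4 of 16 other globule membrane proteins, 3 of 15 SNARE genes, 2 of 13 droplet genes and 1 of 8 transport genes. AXL, a receptor tyrosine kinase, had 46.7, 43.4 and 44.8 FPKM in treated and 28.2, 35.1 and 35.2 FPKM in control libraries. Its ligand GAS6 had 109, 121 and 125 FPKM in treated and 94.6, 90.4 and 89.5 FPKM in control libraries. Neither pair of groups overlapped, with log2 fold changes of 0.46 ± 0.13 for AXL and 0.37 ± 0.11 for GAS6 (limma adjusted p = 0.251 and 0.265). ITGAV, the integrin alpha-V chain, averaged 60.7 ± 22.2 FPKM in treated and 35.8 ± 11.5 FPKM in control cells (SD, n = 3 each; log2 fold change 0.75 ± 0.32, adjusted p = 0.475 in limma, or 0.47 without treated replicate 1). EDIL3 and the receptor MERTK were at most 0.03 and 0.07 FPKM in any library.

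**Figure D2:**
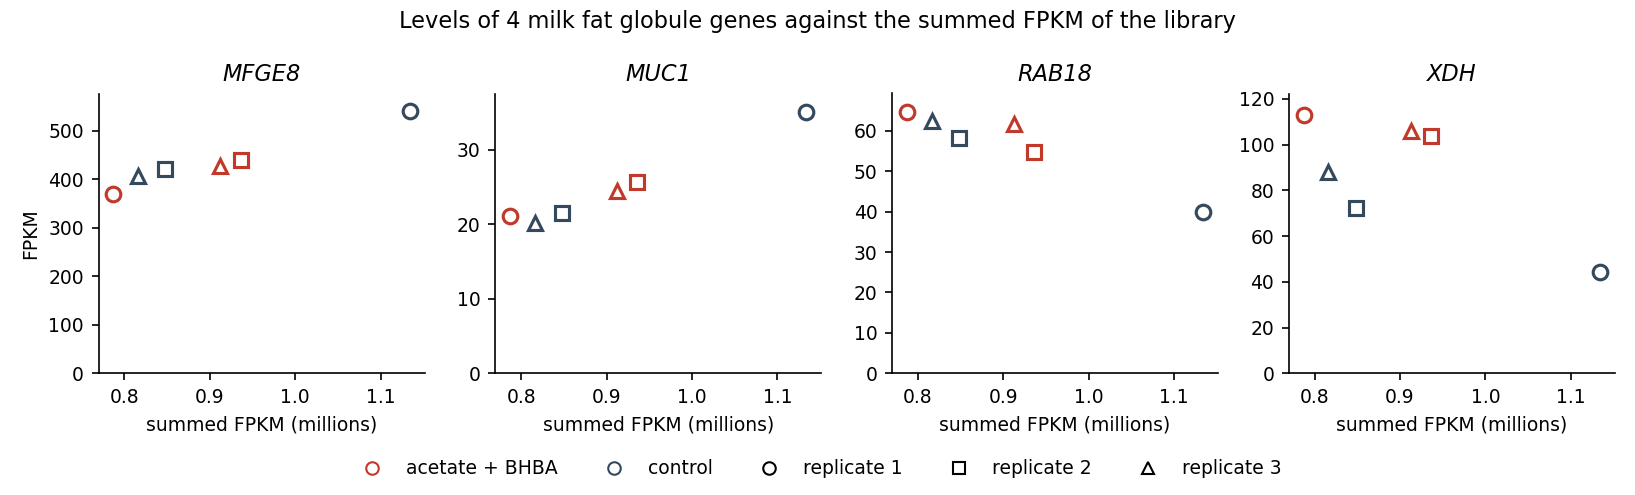
FPKM of MFGE8, MUC1, RAB18 and XDH (vertical axes, from 0) against the summed FPKM of the same library (horizontal axis), for treated (red) and control (dark blue) libraries, with a symbol for each replicate number. MFGE8 climbs with the sum through all 6 libraries, while RAB18 and XDH are highest at the smallest sum and lowest at the largest. XDH falls as the sum rises within each group, and its 3 treated libraries lie above its 3 control libraries.

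MUC1 had 21.0, 25.7 and 24.5 FPKM in treated libraries and 35.0, 21.5 and 20.2 FPKM in control libraries. Control replicate 1 was again the highest, and the other 5 libraries lay between 20.2 and 25.7 FPKM. Means were 23.7 ± 2.40 FPKM in treated and 25.5 ± 8.22 FPKM in control cells (SD, n = 3 each), with a log2 fold change of -0.07 ± 0.23 (95% interval -0.62 to 0.49, limma adjusted p = 0.957). The sign of that difference depended on the processing: it was 0.18 without control replicate 1, 0.02 without treated replicate 1, 0.05 with the FPKM total as a covariate and 0.0082 after rescaling. MUC15 was listed at 0 in all 6 libraries. MUC20, another cell-surface mucin, had 20.99, 22.3 and 23.6 FPKM in treated and 22.2, 20.9 and 18.3 FPKM in control libraries (log2 fold change 0.12 ± 0.13, limma adjusted p = 0.872). It lay below MUC1 in each library, least in treated replicate 1, where MUC1 had 21.04 FPKM, and most in control replicate 1. Of the enzymes that build the O-linked sugars of mucins, 0 of 9 tested passed (1 at an unadjusted p under 0.05), 4 higher and 5 lower, with a median log2 fold change of -0.07. Without control replicate 1 the split was 1 higher and 8 lower with a median of -0.18, and after rescaling it was 5 higher and 4 lower. The smallest p belonged to ST3GAL1, a sialyltransferase that caps core sugars, at 3.62, 3.07 and 3.70 FPKM in treated and 4.27, 5.92 and 6.09 FPKM in control libraries. Those groups did not overlap, and the log2 fold change was -0.57 ± 0.20 (limma adjusted p = 0.343). GCNT1, which branches the core sugar, had a log2 fold change of 0.39 ± 0.27, or 0.18 without control replicate 1. GALNT2, which attaches the first sugar, had one of 0.30 ± 0.31, or -0.06 without control replicate 1.

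SLC34A2 was near the floor of the table. It had 0.77, 0.14 and 0.29 FPKM in treated libraries and 0.05, 0.11 and 0.13 FPKM in control libraries. The groups did not overlap, but treated replicate 2 and control replicate 3 differed by the rounding step of the table, 0.01 FPKM, and treated replicate 1 held most of the treated mean. Means were 0.40 ± 0.33 FPKM in treated and 0.097 ± 0.042 FPKM in control cells (SD, n = 3 each). An exact 2-sided permutation test gave p = 0.1, the smallest value that 3 against 3 libraries allow, and after rescaling to the same sum the groups overlapped and p was 0.2. Without treated replicate 1 the difference in means fell to 0.12 FPKM, against 0.30 FPKM with all libraries. Other phosphate carriers were far more abundant: SLC20A1, a carrier of the second sodium-phosphate family, had 72.3, 68.2 and 72.0 FPKM in treated and 45.7, 70.3 and 73.9 FPKM in control libraries. Its log2 fold change was 0.19 ± 0.20 (limma adjusted p = 0.871), or -0.03 without control replicate 1. SLC20A2 ran from 7.45 to 10.4 FPKM in treated and from 6.24 to 10.3 FPKM in control libraries. SLC34A3 averaged 0.87 ± 0.27 and 1.12 ± 0.50 FPKM in the same order (SD, n = 3 each), and SLC34A1 was listed at 0 in all 6 libraries. XPR1, a phosphate exporter, ran from 3.29 to 7.76 FPKM in treated and from 0.41 to 6.19 FPKM in control libraries, with control replicate 1 the lowest. The 8 tested genes of phosphate and calcium transport gave 0 calls and 0 at an unadjusted p under 0.05, 6 higher and 2 lower, with a median log2 fold change of 0.19. Without control replicate 1 the split was 1 higher and 7 lower, with a median of -0.10. ATP2B2, the apical calcium pump of the lactating gland in mice, reached at most 0.01 FPKM. ATP2C2, a Golgi calcium pump, averaged 2.03 ± 0.44 FPKM in treated and 3.04 ± 0.43 in control cells without overlap (SD, n = 3 each; log2 fold change -0.49 ± 0.22, adjusted p = 0.514 in limma).

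**Figure D3:**
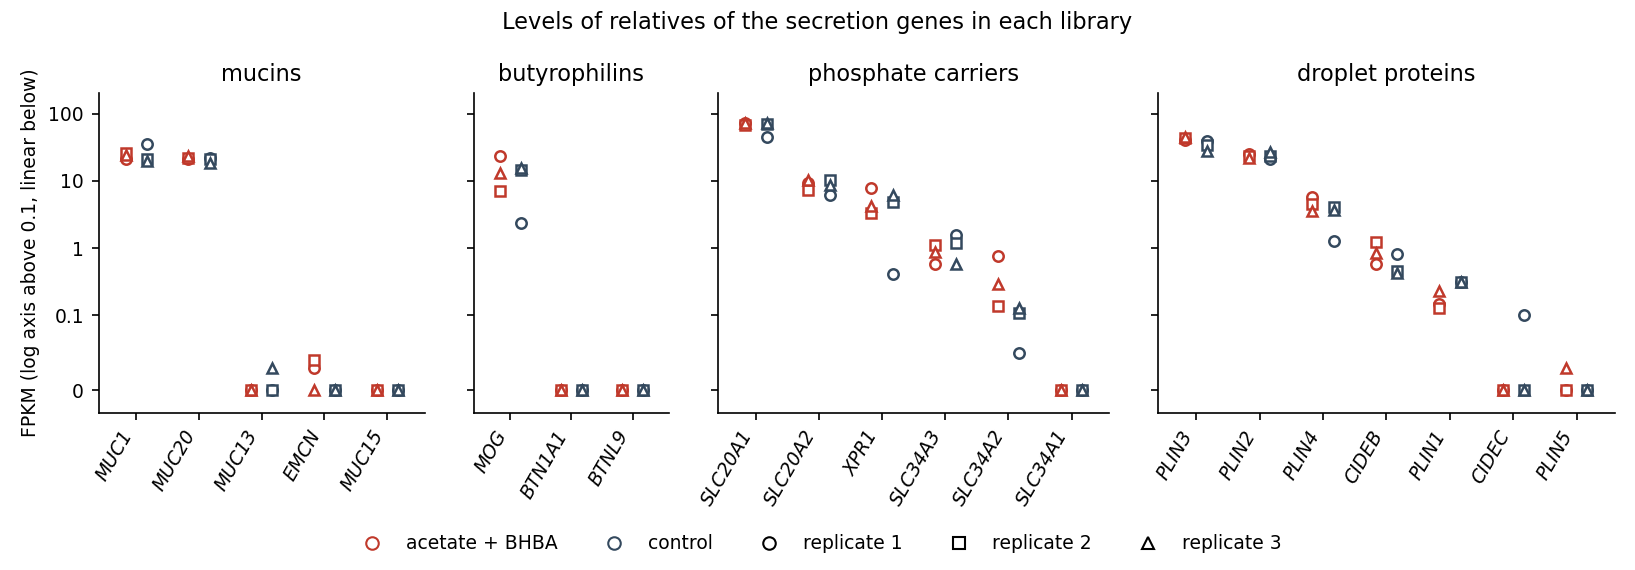
FPKM of relatives of the secretion genes in each library (mucins, butyrophilins, phosphate carriers and droplet proteins), treated in red to the left of control in dark blue, on an axis that is logarithmic above 0.1 FPKM and linear below it. MUC1 and MUC20 lie between 18.3 and 25.7 FPKM, except MUC1 in control replicate 1, at 35.0 FPKM. SLC20A1 lies far above SLC34A2 in each library, and BTN1A1, BTNL9, MUC15 and SLC34A1 are listed at 0 in all 6.

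Other proteins found on the milk fat globule membrane gave 0 calls among 16 tested genes. At an unadjusted p under 0.05 there were 3, against 11.0% of all genes tested. The split was 10 higher and 6 lower, with a median log2 fold change of 0.08, the same as over all genes tested. The count of higher members was 15 after rescaling to the same total, where the median of all genes also rose. It was 8 with trimmed-mean factors or without control replicate 1. FABP3, a cytosolic fatty acid binding protein that globules carry, came closest, with 22.6, 26.2 and 24.0 FPKM in treated and 14.3, 8.88 and 7.84 FPKM in control libraries. Treated libraries all lay above control libraries, and here control replicate 1 was the control nearest to the treated group. FABP3 passed without control replicate 1 (log2 fold change 1.48, limma adjusted p = 0.00933) and with the FPKM total as a covariate (1.34, adjusted p = 0.000615), against 1.23 ± 0.23 and an adjusted p of 0.0980 over all libraries. CD14, a co-receptor for bacterial lipopolysaccharide, had 7.06, 8.03 and 6.19 FPKM in treated and 3.65, 4.65 and 4.73 FPKM in control libraries (log2 fold change 0.65 ± 0.18, limma adjusted p = 0.237). The most abundant were ANXA2, an annexin, at 4026 ± 255 FPKM in treated and 3551 ± 226 in control cells, and ANXA1 at 896 ± 36.6 and 920 ± 163 FPKM in the same order (SD, n = 3 each). CD36, the fatty acid transporter, and ABCG2, a transporter of vitamins and drugs into milk, reached at most 0.1 and 0.66 FPKM in any library. FOLR1, a folate receptor, was above 0 in 1 library only.

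The fusion machinery that joins membranes at secretion was represented by 16 SNARE and SNARE-binding genes, of which 15 had a row and were tested, with 0 past the threshold and 0 at an unadjusted p under 0.05, 10 higher and 5 lower, and a median log2 fold change of 0.06. With trimmed-mean factors the split was 7 higher and 8 lower, with a median of -0.02. VAMP8, a vesicle SNARE of exocrine secretion, had 179, 283 and 245 FPKM in treated and 491, 259 and 255 FPKM in control libraries. Control replicate 1 was the highest and treated replicate 1 the lowest, as for MFGE8, and the log2 fold change of -0.46 ± 0.31 (limma adjusted p = 0.726) became -0.15 without control replicate 1 and -0.28 without treated replicate 1. STX2, a plasma membrane syntaxin, had 22.6, 21.0 and 19.2 FPKM in treated and 15.1, 17.7 and 17.7 FPKM in control libraries, without overlap (log2 fold change 0.31 ± 0.13, limma adjusted p = 0.479). STXBP2, a syntaxin-binding protein, averaged 92.5 ± 10.6 FPKM in treated and 80.8 ± 15.8 FPKM in control cells (SD, n = 3 each). Its log2 fold change was 0.20 ± 0.17 (limma adjusted p = 0.821), or 0.36 without control replicate 1 and 0.09 without control replicate 3.

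**Figure D4:**
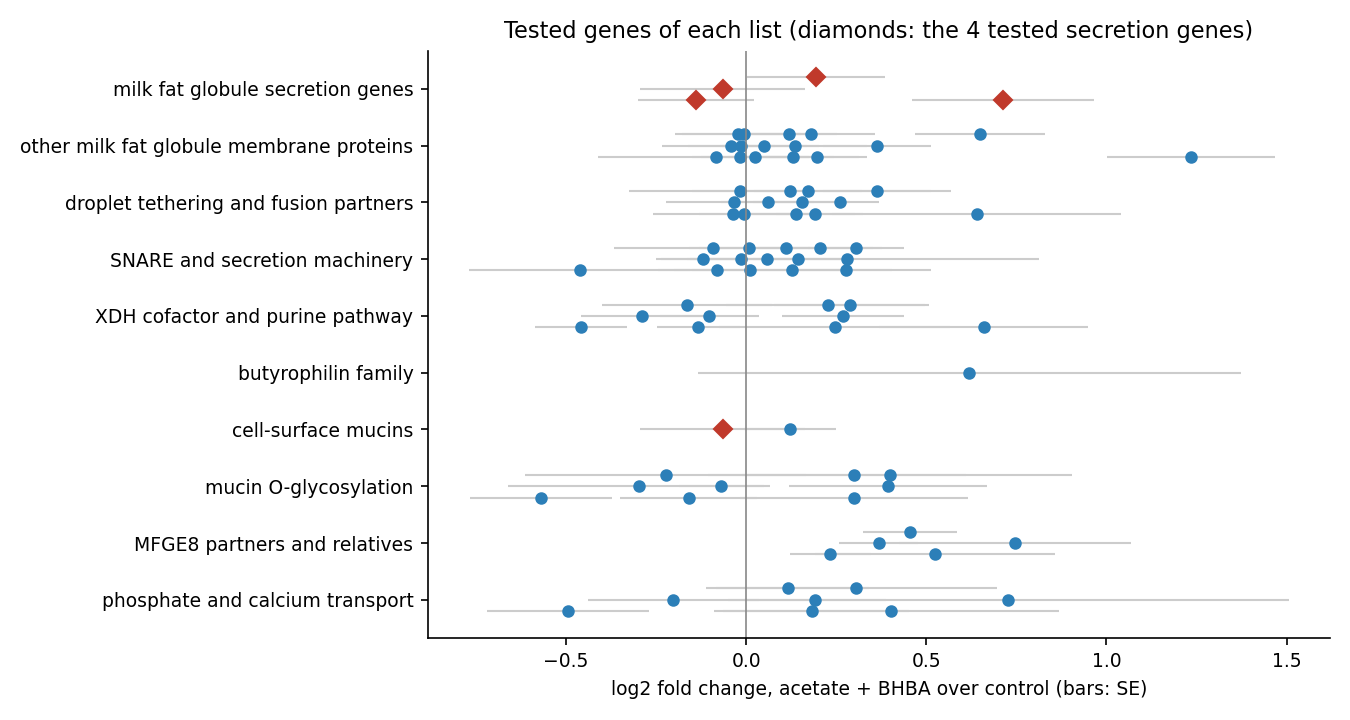
Log2 fold change of each tested gene, acetate and BHBA over control (horizontal axis, bars ± SE), in 10 lists, with red diamonds for XDH, RAB18, MFGE8 and MUC1 and blue dots for other genes. XDH stands at 0.71 with the other 3 secretion genes between -0.14 and 0.19, the rightmost dot is FABP3, and no gene shown passed adjustment over all genes tested.

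Pattern likeness was described by the Pearson correlation of log2(FPKM + 0.5) over the 6 libraries, across 10285 other genes with a symbol. The libraries and the contrast are shared by all genes, so these values have no p. Closest to XDH were RIPOR3 (r = 0.996) and ELK1 (r = 0.993), the second with 14.0, 12.7 and 12.1 FPKM in treated and 5.38, 8.30 and 9.93 FPKM in control libraries. Closest to RAB18 were C2orf88 and DDB1 (both r at least 0.997), to MFGE8 GTF3C5 and LLPH (at least 0.998) and to MUC1 SSR3 and RAB24 (at least 0.997). A correlation of 0.99 or more was reached by 4 genes for XDH, 35 for RAB18, 80 for MFGE8 and 46 for MUC1. By this count the pattern of XDH was the least shared of the 4.

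**Figure D5:**
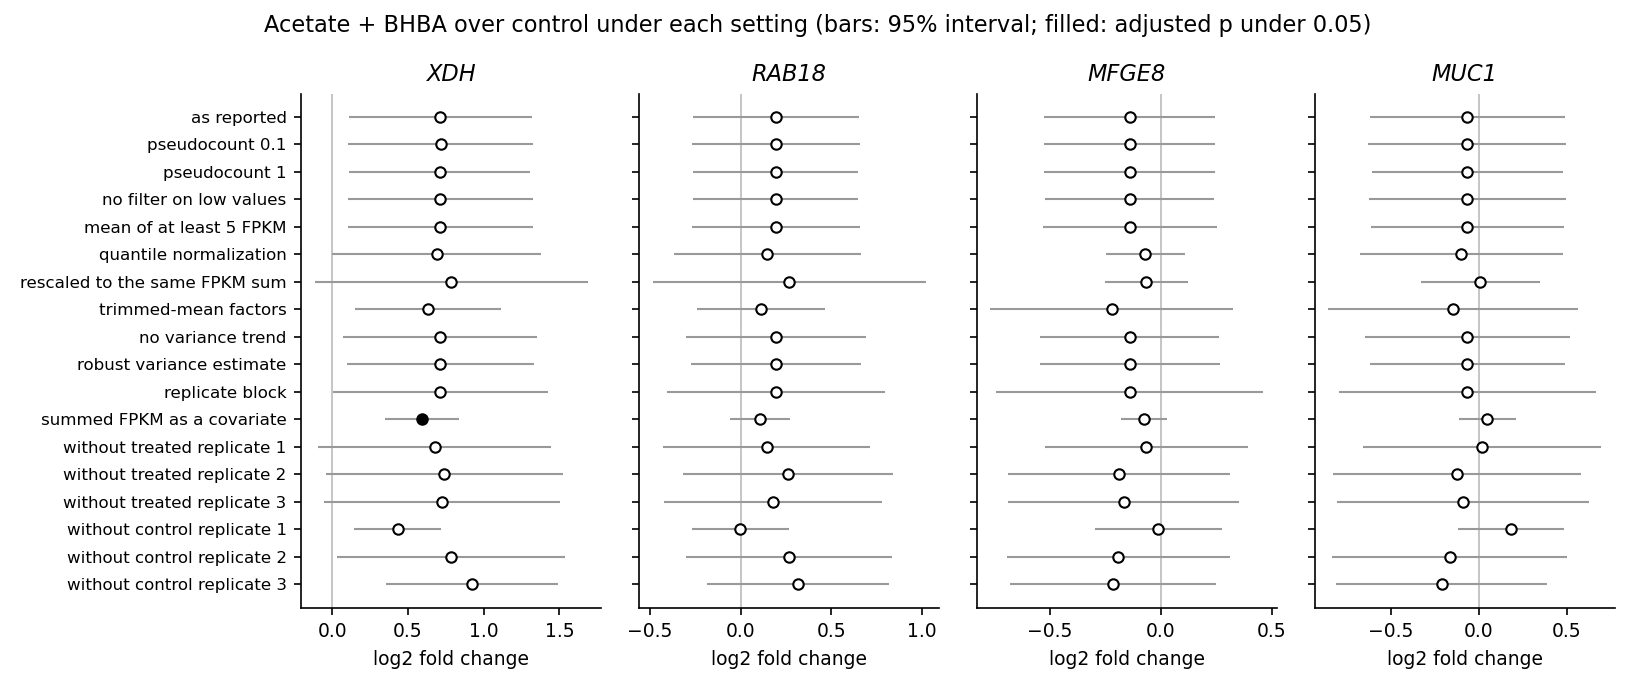
Log2 fold change of XDH, RAB18, MFGE8 and MUC1, treated over control, as reported and under 17 alternative settings (rows), with limma's 95% intervals unadjusted for the number of genes and filled points where the adjusted p was under 0.05. XDH is positive in every row, from 0.43 to 0.92, and filled in 1, whereas RAB18 lies between -0.0011 and 0.32, MFGE8 between -0.22 and -0.01 and MUC1 between -0.21 and 0.18, with no filled point.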

How the data were processed

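RNA-seq of 6 libraries was analysed. Per the labels' protocols, mRNA was enriched by its poly(A) tail and sequenced as paired-end TruSeq libraries. The deposited values form 1 FPKM table, rounded to 2 decimals, with the unit taken from its name. Per the submitters' processing notes the build was ARS-UCD1.2, and they name DESeq2 without a role. No source used here gives the aligner, counter, annotation release or strand setting, so genes that overlap or resemble one another are uncertain. The smallest value above 0 is 0.01 FPKM, so reads could not be recovered and no count model was fitted.

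Symbols came from the table, from RefSeq protein accessions for 122 rows (assembly ARS-UCD2.0, names only) and from descriptions for 9. A further 5950 rows kept an identifier only, so a listed gene without a match may be among them. The 11615 genes whose mean reached 1 FPKM were tested on log2(FPKM + 0.5) with limma 3.58.1 in R 4.3.3, with a mean-variance trend, 2-sided, no block, adjusted over all of them. SLC34A2, below that minimum, had an exact permutation test (scipy 1.17.1). The fit was tested on simulated data with independent noise in each gene and larger changes than those of the members. That test does not cover shifts shared by the genes of a library. Fold changes on this scale are understated for low genes.

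The 17 gene lists, that of the members among them (171 genes, 153 with a row), and the tests were chosen with earlier results of these data known. Named genes were all members, PLIN2, up to 3 genes with the smallest p in each list, relatives of members by level, and the 2 genes closest in pattern to each tested member. ITGB5 and TIMD4 entered only in counts. Genes named for their known tie to a member (the RAB18 regulators and tethers, MOCOS, UOX, MERTK, EDIL3, ATP2B2, CD36, ABCG2, FOLR1, ANXA1 and ANXA2), and the marker genes named singly, were chosen after their values were seen.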

Additional observations from a re-analysis of the deposited data

How the results depend on the processing

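Each result was recomputed under 17 alternatives: 11 changes of pseudocount, filter, scaling, variance estimate, block or covariate, and 6 that left out a library. Members past the threshold stayed at 0 in all but 1, the fit with the summed FPKM as a covariate, where XDH passed (log2 fold change 0.59) and 2089 of all genes did. All genes past the threshold numbered 55 as reported, 33 with a mean of at least 5 FPKM, 23 after rescaling to the same sum and 0 to 205 when a library was left out, the highest without control replicate 1. In the 4 of those fits with 0 calls, 731 to 921 genes had an unadjusted p under 0.05. With 1 library fewer, residual degrees of freedom also fall. The share of higher calls was 40 of 55 as reported and 35 of 62 with quantile normalization. The median log2 fold change of all genes was 0.08 as reported, 0.15 after rescaling and 0.00 with quantile normalization or trimmed-mean factors. The direction of MUC1 turned after rescaling (0.0082) and with the covariate (0.048), and over left-out libraries it ran from -0.21 to 0.18. RAB18 ran from -0.0011 to 0.32. PLIN2 turned after rescaling (0.057) and ran from -0.090 to 0.070. Without control replicate 1, MOG (-0.19 to 1.04 over left-out libraries), GALNT2 (-0.061 to 0.50), SLC20A1 (-0.027 to 0.32) and XPR1 (-0.18 to 1.26) turned. XDH ran from 0.43 to 0.92, MFGE8 from -0.22 to -0.01 and the SLC34A2 difference from 0.12 to 0.43 FPKM over left-out libraries. The cause was not tested. Deviations from the group means correlated at -0.73, -0.37 and -0.38 between same-numbered libraries. With so few libraries per group these correlations are tied to one another. They cannot tell whether a number marks a shared culture or day, and the labels do not say. With the replicate block 0 of all genes passed, 584 at an unadjusted p under 0.05, and XDH kept its log2 fold change of 0.71 with an adjusted p of 0.986 in limma. Depth is unknown, so what it limits cannot be given.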
